A study of Rattus norvegicus with 6 samples.

Results

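The chemokine ligands and receptors were followed as one gene family in cultured rat heart cells. They were taken from the gene count table by symbol alone: every row whose name is Ccl, Cxcl, Cx3cl, Ccr, Cxcr, Cx3cr or Ackr, then a number and at most 1 further lower-case letter. This rule found 53 genes, 33 ligands and 20 receptors, among 43035 features, of which 10152 are transcripts that carry no gene annotation. At least 10 counts in 3 or more of the 6 libraries were reached by 25 of the 53 genes, 19 ligands and 6 receptors.

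Chemokines are small secreted proteins that guide moving cells along their concentration gradients. Most act through receptors coupled to inhibitory G proteins, while atypical receptors bind chemokines without that coupling and remove them. Resident macrophages, fibroblasts, endothelial cells and cardiomyocytes can all make chemokines in the heart, where these proteins recruit monocytes and neutrophils after injury.

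The cells were primary cardiomyocytes from the hearts of Sprague-Dawley rats, taken on postnatal day 1 according to the labels. No genotype other than the strain is given, and both groups were grown in the same serum-containing medium and transfected. The si-NC group (3 libraries) received a scrambled small interfering RNA. The si-DYRK1A group (3 libraries) received one against DYRK1A, a protein kinase, and all cells were collected 48 h later. The labels call the 3 libraries of each group biological replicates. Nothing in the sources restricts the siRNA to one cell type of the dish.

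Library totals were 10325074 to 11921772 counts in the si-NC group and 10703229 to 11723974 in the si-DYRK1A group. In these RNA values no fall was seen at the locus of the targeted gene, so it gives no check of the labels. Annotated Dyrk1a had 0 to 3 counts per library, because nearly all reads at its locus were counted under an unannotated transcript of the same strand that covers it. In CPM (counts scaled to the same nominal library total, after correction of each total by edgeR's TMM factor), that transcript had 77.7 ± 3.22 in si-NC and 82.4 ± 2.70 in the other group (SD, n = 3 each), a log2 difference of 0.08 with an edgeR adjusted p of 0.374. The treated group is therefore named by its label. Among the defining markers of the labelled cell type, Actn2 was at 1359 CPM in si-NC, Pln at 397.3 and Tnnt2 at 11.2. Myh6, Myh7, Myl2 and Tnni3 were at 0 in every library. Unannotated transcripts on the same strand cover all 4, so their 0 is not evidence of absence. Ryr2 (22 counts in all) and Myl7 (2 counts in all) were too low to test and are covered as well.

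Of the 25 chemokine genes, 12 rose in the libraries labelled si-DYRK1A, and none fell. The 12 genes were 8 ligands (Cxcl3, Ccl6, Cxcl12, Cxcl6, Ccl7, Cxcl10, Ccl12 and Ccl11) and 4 receptors, among them Ackr3, Cxcr4 and Ccr1. Among the genes named, the rise was 1.25-fold (Ccl7) to 2.35-fold (Cxcl6). The test was edgeR's quasi-likelihood test on 15513 features, with Benjamini-Hochberg adjustment over all of them and a threshold of 0.05. Calls of this kind were made for 8.03% of all features tested in the higher direction and for 7.19% in the lower direction, against 48% and 0 of the chemokine genes. At an unadjusted p under 0.05, 14 chemokine genes were higher and 2 (Ccl3 and Cxcl16) were lower. DESeq2 gave an adjusted p to 20 of the genes and called 10 higher and 0 lower, all 10 of them also called by edgeR, beside 6.81% higher and 6.22% lower over all its features.

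The median log2 fold change of the 25 genes was 0.32, compared with 0.002 over all features tested, and 21 of the 25 values were positive. In 13 genes, the 12 that rose and Cxcl2, every library labelled si-DYRK1A lay above every si-NC library, an order found in 16.2% of all features. The opposite order was found in Cxcl16 and Ccl3, and in 15.3% of all features. RNA was taken from whole dishes, so fewer cells of a type and less RNA per cell cannot be told apart.

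**Figure D1:**
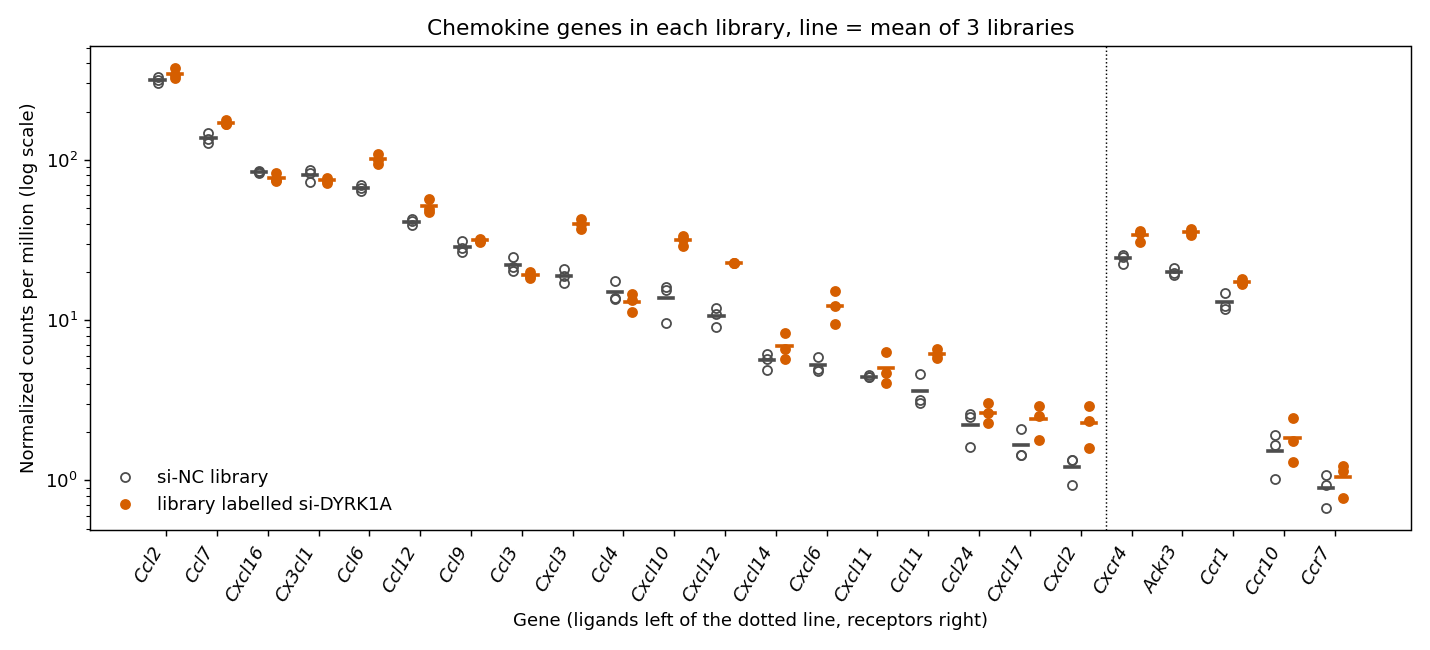
Level of 24 of the 25 chemokine genes with at least 10 counts in 3 or more libraries, in CPM on a log axis. Open grey points are the 3 si-NC libraries, filled orange points are the 3 libraries labelled si-DYRK1A, short lines are group means, and receptors stand to the right of ligands. The groups are apart in genes such as Cxcl12 (10.6 against 22.8 CPM) and Ackr3 (19.9 against 35.4 CPM), and overlap in Ccl2.

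Compared per length, the ligands that attract monocytes were at the top of the family. In the FPKM values of the authors, which divide by gene length, Ccl2 came first in si-NC at 374.3 ± 14.4, followed by Ccl7 at 159.8 ± 12.4 and Ccl12 at 60.4 ± 2.64 (SD, n = 3). Ranks 1 to 3 were taken by the same 3 genes in the libraries labelled si-DYRK1A, at 409.5 ± 31.6, 198.3 ± 7.37 and 75.2 ± 7.58 FPKM. Their ranges over libraries did not overlap with each other in si-NC. The next ranks in si-NC were Cxcl16 at 49.1 FPKM and Ccl6 at 48.2 FPKM, whose ranges overlapped. Ccl3, Cx3cl1, Ccl4 and Ccl9 followed at 21.96 to 29.08 FPKM, and their neighbours in this order also overlapped. The highest receptor was Cxcr4 at 13.8 ± 0.838 FPKM, then Ackr3 at 10.2 ± 0.622 and Ccr1 at 6.95. Cxcl10 and Cxcl3 stood at ranks 12 and 11 in si-NC and at ranks 6 and 7 in the other group.

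The sum of all ligand CPM was 837.1 to 887.1 in the si-NC libraries and 985.1 to 1077 in the libraries labelled si-DYRK1A. Ccl2 and Ccl7 together made up 51.2% to 53.6% of that sum in si-NC and 49.7% to 51.2% in the other group. Ccl2 was thus the largest single term of the ligand sum and among the smallest in fold change.

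Cxcl12 and both of its receptors rose together. Cxcl12 (ENSRNOG00000013589, chromosome 4, 149261044 to 149273891 in Rnor_6.0) is the ligand that retains and attracts stem cells, lymphocytes and endothelial progenitors. Its CPM was 9.01, 10.9 and 11.9 in the si-NC libraries and 22.9, 22.8 and 22.8 in those labelled si-DYRK1A. The groups did not overlap, and the log2 fold change was 1.10 (SE 0.114, 95% interval 0.86 to 1.34, adjusted p = 6.37e-07). An unannotated transcript covers the whole gene on its strand but had at most 2 counts in a library.

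Cxcr4 (ENSRNOG00000003866, chromosome 13, 45314933 to 45318878) is the signalling receptor of Cxcl12. It had 25.4, 22.5 and 24.8 CPM in si-NC and 36.0, 35.1 and 30.9 CPM in the libraries labelled si-DYRK1A, without overlap. Its log2 fold change was 0.49 (SE 0.09, adjusted p = 0.000612). Ackr3 (ENSRNOG00000019622, chromosome 9, 97355924 to 97367445) is an atypical receptor that takes Cxcl12 up and clears it. Its values were 19.6, 21.2 and 19.0 CPM against 37.0, 34.1 and 35.2 CPM, a log2 fold change of 0.83 (SE 0.0877, adjusted p = 7.9e-07). The ligand had the largest and Cxcr4 the smallest fold change of these 3 genes.

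Of the CXC ligands that attract neutrophils, Cxcl3 and Cxcl6 rose to about 2.11 and 2.35 times their si-NC level. These ligands act on Cxcr2, are induced in injured tissue, and lie side by side on chromosome 14. Cxcl3 (ENSRNOG00000028043, 18820168 to 18839595) had 16.97, 18.77 and 20.74 CPM in si-NC and 42.83, 36.91 and 39.90 CPM in the libraries labelled si-DYRK1A. Its log2 fold change was 1.08 (SE 0.0939, 95% interval 0.89 to 1.28), and its adjusted p of 5.33e-08 was the smallest of the family. Cxcl6 (ENSRNOG00000002843, 18860264 to 18862407) was lower in level, with 4.99, 4.82 and 5.85 CPM against 9.41, 15.2 and 12.3 CPM, and its 3 higher libraries spread more widely. The log2 fold change of Cxcl6 was 1.23 (SE 0.179, adjusted p = 4.84e-05).

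Cxcl2 was close to the limit of the test. It had 1.34, 0.930 and 1.34 CPM in si-NC and 1.58, 2.92 and 2.34 CPM in the other group, a log2 fold change of 0.92 with an interval of 0.20 to 1.63 and an adjusted p of 0.0794. Without replicate 1 of the libraries labelled si-DYRK1A, the adjusted p of Cxcl2 was 0.0472. Cxcl1 was at 0 in all libraries, but 99.6% of it is covered by an unannotated transcript that was at 0 too, so neither row shows whether the gene is transcribed. These genes are close paralogs, and how the authors counted reads that match several of them is not given, so the split between Cxcl1, Cxcl2, Cxcl3 and Cxcl6 is uncertain. Their receptors were hardly seen, with 15 counts in all for Cxcr2 and 1 for Cxcr1.

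Cxcl10 and Cxcl11 are neighbouring ligands of Cxcr3 on chromosome 14 that interferons induce, and their values went apart. Cxcl10 (ENSRNOG00000022256, 17210733 to 17212930) had 15.4, 16.2 and 9.62 CPM in si-NC and 33.6, 31.9 and 29.2 CPM in the libraries labelled si-DYRK1A. The lowest of the higher group was well above the highest si-NC library, and the log2 fold change was 1.20 (SE 0.168, 95% interval 0.83 to 1.58, adjusted p = 0.00112). Cxcl11 (ENSRNOG00000022298, 17195014 to 17198291) had 4.41, 4.40 and 4.52 CPM against 4.05, 6.31 and 4.67 CPM. The groups of Cxcl11 overlapped, and its log2 fold change of 0.17 (interval -0.26 to 0.60, adjusted p = 0.656) became -0.03 without replicate 2 of the libraries labelled si-DYRK1A.

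The ratio of Cxcl10 to Cxcl11 counts within a library was 3.10 ± 0.846 in si-NC and 6.53 ± 1.64 in the libraries labelled si-DYRK1A (SD, n = 3). The groups did not overlap, and the exact two-sided permutation p was 0.1, the smallest that 3 libraries against 3 allow. This ratio was chosen after the values of the 2 genes were seen. Both genes lie inside Art3 on the opposite strand, and whether the counting used strand is not given. Art3 had 1965 to 2787 counts per library and fell by 0.25 on the log2 scale (adjusted p = 0.000709). Whether reads of Art3 entered the counts of Cxcl10 or Cxcl11 was not tested. Cxcl9, the third ligand of this group, had 11 counts over all libraries, and the receptor Cxcr3 had 14.

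The promoters of a pair of genes from each chromosome 14 neighbourhood are shown because one gene of each pair rose and the other did not pass the test. That is not a shown difference for Cxcl6 and Cxcl2. The interval of Cxcl2 (0.20 to 1.63) holds the log2 fold change of Cxcl6 (1.23), and the 2 were not tested against each other. Each line gives the 250 bases before the start of the gene from RefSeq (GRCr8), 5′ to 3′ on the strand of the gene. Capitals mark matches to an NF-kB consensus, to an AP-1 site (TGANTCA) or to the core of an interferon-stimulated response element (TTTCNNTTTC), each searched on both strands. The pair Cxcl10 (chr14:15988816-15989065, plus strand) and Cxcl11 (chr14:15973478-15973727, plus strand) comes first, followed by Cxcl6 (chr14:17596418-17596667, minus strand) and Cxcl2 (chr14:17467256-17467505, minus strand).
Cxcl10: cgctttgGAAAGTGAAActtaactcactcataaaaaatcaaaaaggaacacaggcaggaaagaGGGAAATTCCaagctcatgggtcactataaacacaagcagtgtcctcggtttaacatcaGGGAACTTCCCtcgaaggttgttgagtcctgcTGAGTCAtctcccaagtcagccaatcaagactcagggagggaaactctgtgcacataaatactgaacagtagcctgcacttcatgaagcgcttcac
Cxcl11: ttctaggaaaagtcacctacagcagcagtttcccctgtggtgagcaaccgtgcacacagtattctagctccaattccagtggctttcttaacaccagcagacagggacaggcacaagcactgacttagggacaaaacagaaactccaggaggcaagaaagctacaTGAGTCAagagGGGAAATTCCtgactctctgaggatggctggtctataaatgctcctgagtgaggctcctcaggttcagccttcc
Cxcl6: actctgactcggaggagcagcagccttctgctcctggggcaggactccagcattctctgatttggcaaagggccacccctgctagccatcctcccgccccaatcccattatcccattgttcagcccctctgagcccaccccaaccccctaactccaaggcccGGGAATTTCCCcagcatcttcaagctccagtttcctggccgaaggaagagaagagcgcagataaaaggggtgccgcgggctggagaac
Cxcl2: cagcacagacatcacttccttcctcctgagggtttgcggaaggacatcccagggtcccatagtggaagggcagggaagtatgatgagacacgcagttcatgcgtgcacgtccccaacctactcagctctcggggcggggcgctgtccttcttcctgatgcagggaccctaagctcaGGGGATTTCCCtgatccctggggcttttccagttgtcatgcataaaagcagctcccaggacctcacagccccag

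Counted from the start, Cxcl10 had the interferon core from base -243 on the other strand, NF-kB matches from -187 and -128, and an AP-1 match from -96. Cxcl11 had an AP-1 match from -85 and an NF-kB match from -74, and no match of the interferon core in these 250 bases. Cxcl6 had an NF-kB match from -88 and Cxcl2 one from -74, where overlapping matches were joined in the capitals. Promoters were found for 40 of the 53 chemokine genes. The NF-kB consensus was in 9 of these 40, in 3 of the 9 with a promoter among those that rose (Ccl7, Cxcl10 and Cxcl6), and in 6.33% of 33469 promoters of the table. The interferon core was in 2 of the 40 (Cxcl10 and Ccl19) and in 3.41% of all promoters, and the AP-1 site in 6 of the 40 and in 6.34% of all. Such matches describe letters in a window and do not show that a factor binds there.

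Among the macrophage-attracting CC ligands other than those of Ccr2, Ccl6 rose and its neighbours on chromosome 10 did not pass the test. Ccl6 (ENSRNOG00000030021, 70797124 to 70802782) is a macrophage-attracting ligand of Ccr1. Its level was 63.8, 66.4 and 69.6 CPM in si-NC and 94.3, 109.4 and 100.1 CPM in the libraries labelled si-DYRK1A, with a log2 fold change of 0.60 (SE 0.0622, adjusted p = 5.95e-07). Ccl9, the next gene along the chromosome and also a Ccr1 ligand, had 28.5 ± 2.28 against 31.4 ± 0.713 CPM (log2 fold change 0.14, adjusted p = 0.325).

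Ccl3 and Ccl4 each encode a macrophage inflammatory protein. Ccl3 had 21.5, 20.4 and 24.6 CPM in si-NC and 18.8, 19.9 and 18.4 CPM in the other group, so the groups did not overlap, but the log2 fold change of -0.22 (interval -0.43 to -0.01) had an adjusted p of 0.162. An antisense RNA overlaps 50.1% of Ccl3. Ccl4 had 14.9 ± 2.29 against 13.0 ± 1.64 CPM (log2 fold change -0.19, adjusted p = 0.374). Ccl5 had 0, 3 and 2 counts in si-NC against 9, 4 and 5 in the other group, too few for the test. The ratio of Ccl6 to Ccl9 counts was 2.34 ± 0.14 in si-NC and 3.23 ± 0.273 in the other group, and that of Ccl6 to Ccl3 was 3.02 ± 0.218 and 5.32 ± 0.268 (SD, n = 3). Neither ratio overlapped between groups, and the exact permutation p was 0.1 for each, the smallest possible. These ratios were also chosen after the values were seen.

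The receptor of Ccl6 and Ccl9 rose as well. Ccr1 (ENSRNOG00000006715, chromosome 8, 132996649 to 133002201), carried by monocytes and macrophages, had 14.67, 11.76 and 12.29 CPM against 16.89, 17.99 and 16.96 CPM. The log2 fold change of Ccr1 was 0.42 (SE 0.116, adjusted p = 0.0153), and it had an adjusted p of 0.0684 with DESeq2. Without replicate 2 or 3 of si-NC, or replicate 2 of the libraries labelled si-DYRK1A, the edgeR adjusted p of Ccr1 was 0.0715, 0.0603 and 0.0813. On the same stretch of the chromosome lie Ccr3, with 2 counts in all, and Ccr2, at 0. The model of Ccr2 in the table is 286 bases long, so its 0 is no measure of the full receptor gene.

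The ligands of Ccr2 came first in the order per length, and those that rose, Ccl7 and Ccl12, had the smallest fold changes of the 12 genes. Ccl7 (ENSRNOG00000000239, chromosome 10, 69423086 to 69424979) had 135.5, 126.6 and 147.9 CPM in si-NC and 166.8, 177.3 and 166.5 CPM in the libraries labelled si-DYRK1A. This was a log2 fold change of 0.32 (SE 0.055, adjusted p = 0.000345). Ccl12 (ENSRNOG00000029768, 69476775 to 69478462) had 39.2, 41.7 and 42.5 CPM against 47.6, 57.3 and 49.4 CPM, also a log2 fold change of 0.32 (SE 0.0786, adjusted p = 0.00706). Without replicate 2 of the libraries labelled si-DYRK1A, Ccl12 had an adjusted p of 0.077.

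Ccl2 (ENSRNOG00000007159, 69412017 to 69413870), the chief attractant of inflammatory monocytes, had 314, 302.2 and 327.2 CPM in si-NC and 338.5, 374.2 and 322.8 CPM in the other group. Replicate 3 of the latter lay within the si-NC range, and the log2 fold change was 0.13 (interval 0.03 to 0.24, adjusted p = 0.0904). Leaving out that library gave an adjusted p of 0.0428. The ratio of Ccl7 to Ccl2 counts, chosen after the values were seen, was 0.434 ± 0.0168 in si-NC and 0.494 ± 0.021 in the libraries labelled si-DYRK1A (SD, n = 3, exact permutation p = 0.1).

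Of the eotaxins, which attract eosinophils through Ccr3, Ccl11 rose from a low level. Ccl11 (ENSRNOG00000007335, 69434941 to 69439575) lies between Ccl7 and Ccl12 and had 3.16, 3.04 and 4.60 CPM in si-NC and 5.80, 6.12 and 6.58 CPM in the libraries labelled si-DYRK1A. Its log2 fold change was 0.77 (SE 0.207, 95% interval 0.34 to 1.20, adjusted p = 0.0134). DESeq2 gave an adjusted p of 0.0544, and leaving out replicate 1 or 2 of si-NC or replicate 3 of the libraries labelled si-DYRK1A gave 0.0623, 0.0601 and 0.0622 with edgeR. Ccl24 did not pass the test (log2 fold change 0.25, SE 0.281, adjusted p = 0.618), and Ccl26 was at 0.

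**Figure D2:**
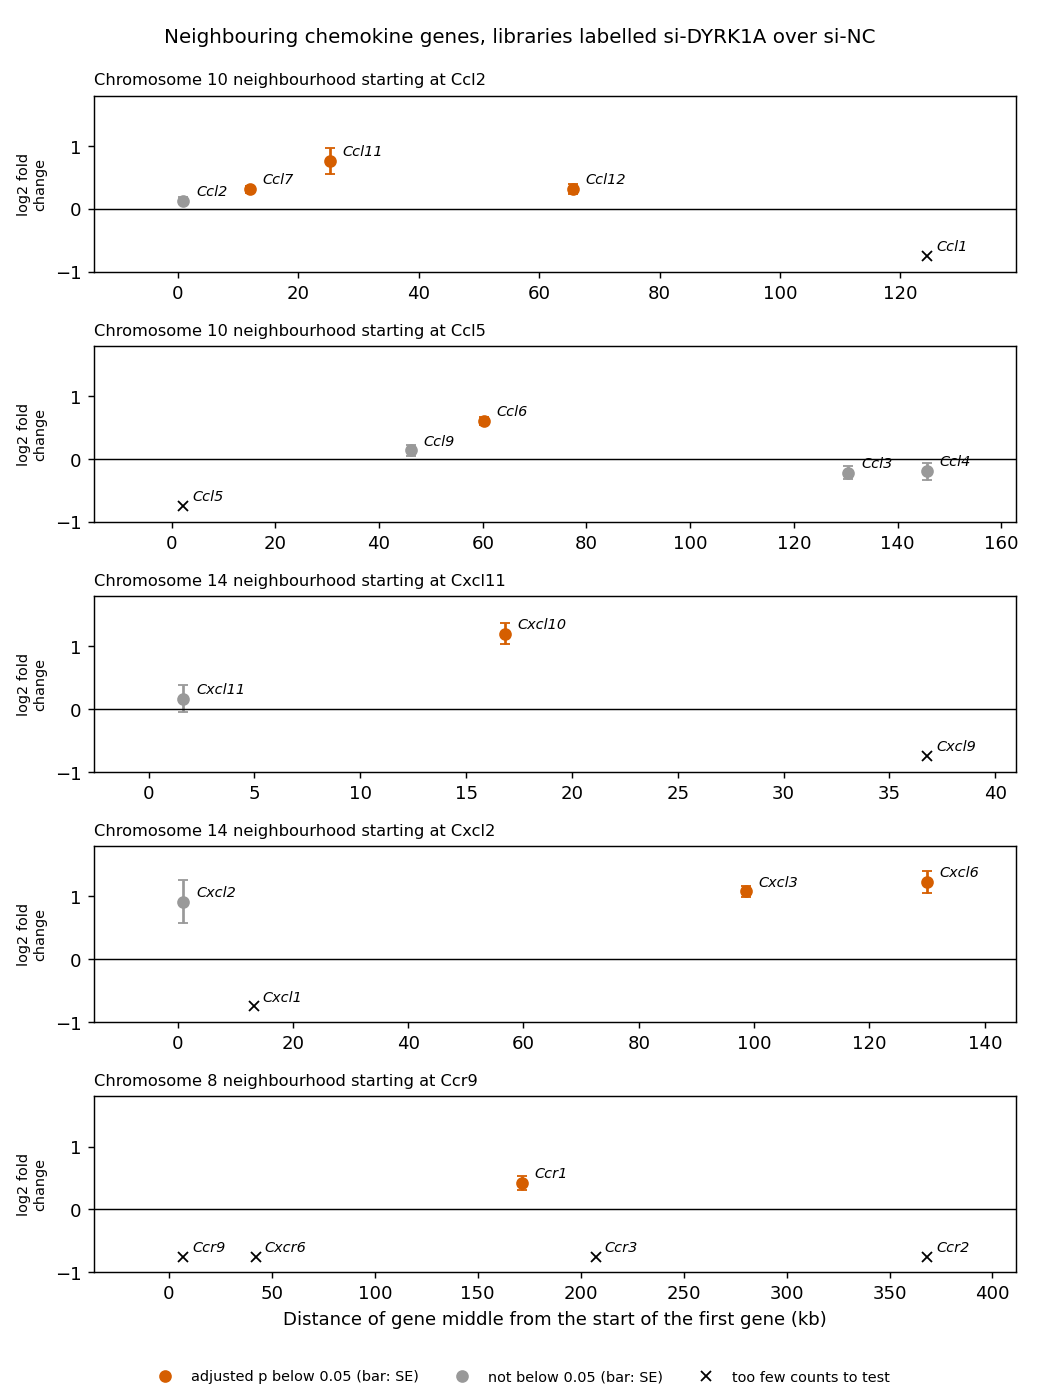
Log2 fold change (libraries labelled si-DYRK1A over si-NC) of tested chemokine genes (1 left out) in 5 neighbourhoods against distance along the chromosome in kilobases from the first gene of each, each point at the middle of its gene with a bar of 1 SE to each side. Orange marks an adjusted p below 0.05, and crosses, placed below the points, mark genes with too few counts. Genes that rose lie next to genes that did not pass the test, such as Cxcl10 (1.20) beside Cxcl11 (0.17) and Ccl6 (0.60) beside Ccl9 (0.14).

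The 2 chemokines made as membrane proteins had slightly lower means and did not pass the test. Cxcl16, the ligand of Cxcr6 and a scavenger of oxidized lipoprotein, had 85.2, 83.0 and 84.5 CPM in si-NC and 74.7, 82.2 and 73.6 CPM in the libraries labelled si-DYRK1A (log2 fold change -0.13, interval -0.26 to -0.01, adjusted p = 0.139). Cx3cl1 (fractalkine), which tethers cells bearing Cx3cr1, had 83.2, 86.3 and 72.3 CPM against 71.9, 74.0 and 77.0 CPM (log2 fold change -0.12, adjusted p = 0.266). The groups of Cx3cl1 overlapped through replicate 3 of si-NC, and without that library its log2 fold change was -0.20 with an adjusted p of 0.0407. Their receptors were near the floor, with 7 counts in all for Cx3cr1 and 9 for Cxcr6.

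Of the 12 other ligands, most of them of lymphoid organs or epithelia, 2 had enough counts and neither passed the test. Cxcl14, a constitutive epithelial chemokine, had 5.62 ± 0.652 against 6.86 ± 1.31 CPM (log2 fold change 0.29, adjusted p = 0.351). Cxcl17, a mucosal chemokine, had 1.66 ± 0.377 against 2.40 ± 0.565 CPM (log2 fold change 0.53, SE 0.31, adjusted p = 0.285). The remaining receptors with enough counts were Ccr7, which guides cells to lymph nodes (log2 fold change 0.21, SE 0.423, adjusted p = 0.805), and Ccr10, a receptor of skin-homing cells (log2 fold change 0.26, SE 0.354, adjusted p = 0.699). Their intervals reached from -0.67 to 1.09 and from -0.48 to 0.99, so at this depth a change as large as that of Ccl6 could not be seen in either gene.

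**Figure D3:**
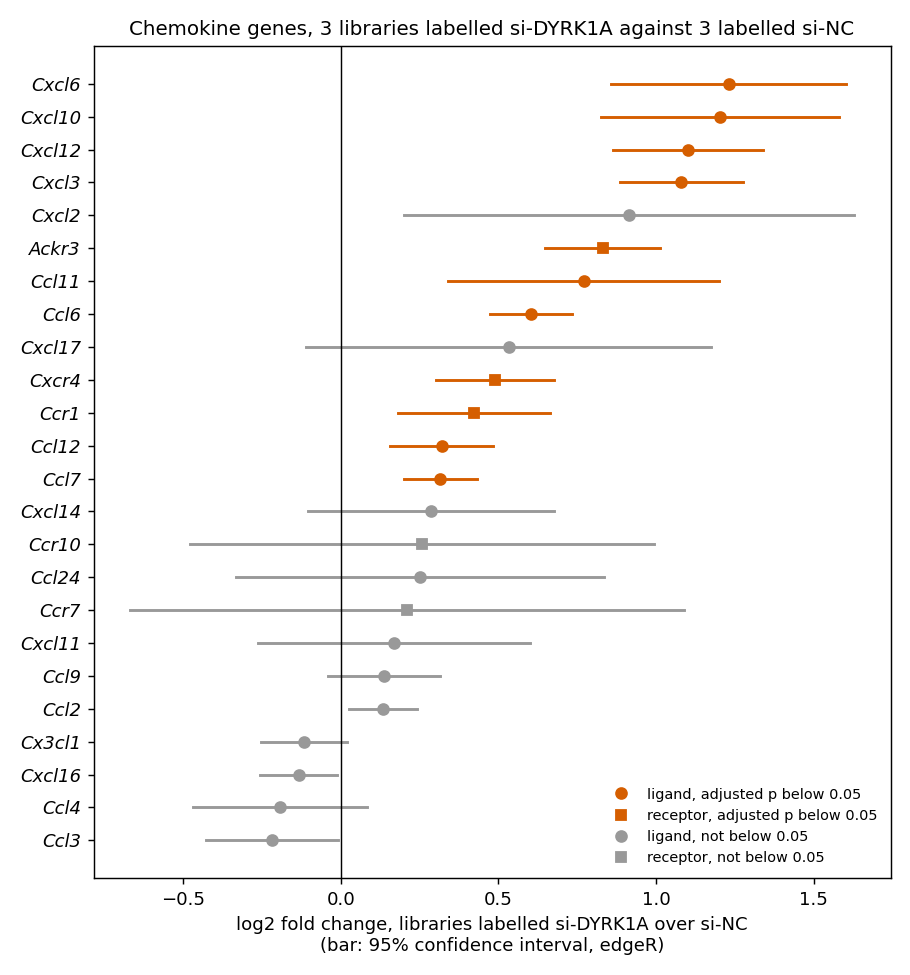
Log2 fold change of 24 of the 25 chemokine genes (libraries labelled si-DYRK1A over si-NC, 3 libraries each) with its 95% confidence interval from edgeR, ordered by size. Circles are ligands, squares are receptors, and orange marks an adjusted p below 0.05. Orange intervals lie wholly above 0, from Ccl7 at 0.32 to Cxcl6 at 1.23, and the lowest value is Ccl3 at -0.22.

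The 28 chemokine genes below the count limit comprised 14 ligands and 14 receptors. Of these, 22 had 1 or more counts, with a highest total of 47 (Ccl19) and a highest single count of 20 (Ccl17 in replicate 3 of si-NC). The remaining 6 were Ccl26, Cxcl1, Cxcl13, Ccr2, Ccr4 and Ccr8, at 0 in every library, where a count of 0 allows up to 3 counts, or 0.251 to 0.288 CPM. This limit covers counting error only. Cxcl1 and Cxcl13 (99.2% covered) lie under unannotated transcripts also at 0, which the limit does not address. The atypical receptors Ackr2 and Ackr4 had 10 counts each. Adding the counts of covering unannotated transcripts on the same strand brought 1 more gene, Ackr4, over the limit of 10 counts.

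Genes that carry or accompany chemokine signals moved in both directions. The counts of each list stand beside 8.03% called higher and 7.19% called lower over all features tested. In a list of G proteins, arrestins, kinases and motility factors downstream of the receptors, 22 of 32 genes in the table were tested, 1 rose and 6 fell, with a median log2 fold change of -0.13. All 10 not tested are covered by unannotated transcripts on their strand, so their low counts are not evidence of absence. Rgs16, which switches off the G proteins of chemokine receptors, rose (57.1 to 77.5 CPM, log2 fold change 0.44, adjusted p = 9.35e-05). Rac2, the small GTPase of moving leukocytes, fell by 0.59 on the log2 scale (30.7 to 20.4 CPM, adjusted p = 0.000165). The G protein subunit Gng2 fell by 0.29 (adjusted p = 0.00222) and the phospholipase Plcb3 by 0.23 (adjusted p = 0.00761). When single libraries were left out, 3 to 6 genes of this list were called lower. The count was 3 without replicate 1 of si-NC, where Plcb3 (adjusted p = 0.0572), Gnai1 and Vav1 were lost, and Plcb3 also had an adjusted p of 0.0807 without replicate 2 of the libraries labelled si-DYRK1A.

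Among 13 tested genes of 23 in a list of NF-kB factors and inflammatory genes, 1 rose and 2 fell, with a median of -0.15. Of the 10 not tested, 8 are covered by unannotated transcripts on their strand, so their low counts are not evidence of absence. Nfkb1, Rel, Nfkbie and Bcl3 were at 0, so the list leaves out several of the NF-kB factors themselves. The adhesion molecule Icam1 had 256.4 ± 6.64 CPM in si-NC and 181.5 ± 13.9 in the libraries labelled si-DYRK1A (log2 fold change -0.50, adjusted p = 6.71e-07). The growth factor Csf1 went from 140.6 to 117.5 CPM (-0.26, adjusted p = 0.00123), and Ptgs2, the inducible prostaglandin synthase, from 75.5 to 105.7 CPM (0.48, adjusted p = 1.35e-05).

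The interferon response list moved furthest. Of its 17 genes 13 were tested, 10 rose and none fell, and the median log2 fold change was 0.87. The 4 not tested are all covered by unannotated transcripts on their strand, so their low counts are not evidence of absence. This list was chosen with its direction in these data known, and its count is not independent evidence. The 4 with the smallest p were the GTPase Gbp2 (75.2 to 137.7 CPM, 0.87, adjusted p = 5.9e-10), the ubiquitin-like protein Isg15 (21.9 to 53.5 CPM, 1.29, adjusted p = 2.59e-06), Ifit3 (1.05, adjusted p = 1.6e-05) and the Isg15 protease Usp18 (1.64, adjusted p = 2.59e-05). Leaving out single libraries gave 9 to 11 genes higher.

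Of 16 genes for the presentation, shedding and cleavage of chemokines, 10 were tested, 2 rose and 3 fell (median 0.05). Unannotated transcripts on the same strand cover all 6 not tested, so their low counts are not evidence of absence. Adam17, which sheds membrane-bound chemokines, went from 195.7 to 167.8 CPM (-0.22, adjusted p = 0.00191), and the protease Mmp9 fell by 0.34 on the log2 scale (adjusted p = 0.00238). Ext1, which extends heparan sulfate, rose by 0.19 (adjusted p = 0.00339), and its partner Ext2 fell by 0.17 (adjusted p = 0.0283). Hs6st1, which sulfates the same chains, was at 0.14 (adjusted p = 0.0313) and lost its call in 4 of the 6 fits without a library, with an adjusted p of up to 0.184. Ext2 was lost without replicate 1 or 2 of si-NC (adjusted p = 0.144 and 0.0697) and without replicate 2 or 3 of the libraries labelled si-DYRK1A (0.201 and 0.0507). Of 8 relatives of the family whose symbols the rule does not cover, 3 were tested (median -0.16) and 1 rose. That gene was Pf4 (176.2 ± 11.98 to 209.8 ± 15.52 CPM, 0.25, adjusted p = 0.00592), a platelet and macrophage chemokine, which had an adjusted p of 0.0583 without replicate 2 of the libraries labelled si-DYRK1A.

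**Figure D4:**
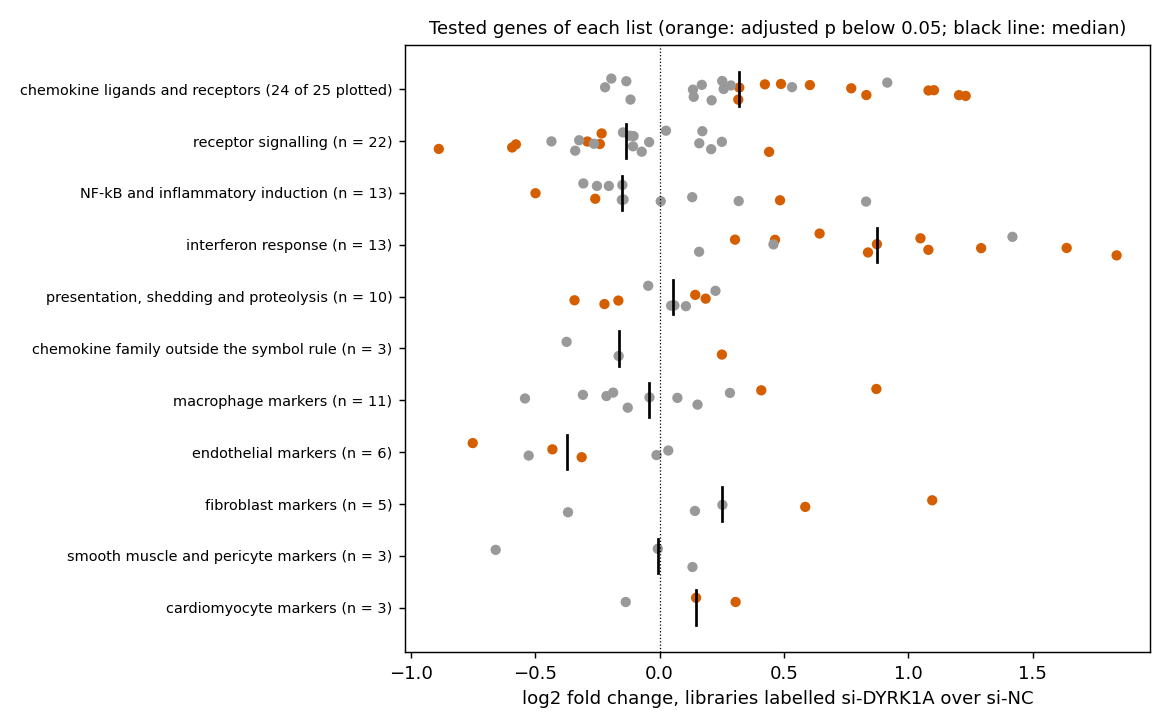
Log2 fold change (libraries labelled si-DYRK1A over si-NC) of the tested genes in the chemokine family (24 of 25 plotted, with the median of all 25) and in each pathway and marker list, 1 point per gene, with orange for an adjusted p below 0.05 and a black line at the median. The chemokine median of 0.32 and the interferon response median of 0.87 lie above 0, and the endothelial median of -0.37 lies below.

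Several cell types that make or read chemokines could be present in such cultures, so their markers were followed beside the family. In the macrophage list, 11 of 14 genes in the table were tested, and the summed level was 345.1 to 363.2 CPM in si-NC and 351.1 to 394.6 CPM in the libraries labelled si-DYRK1A. Lyz2 (88.8 to 117.8 CPM, 0.41, adjusted p = 0.000178), the largest term of that sum, and the scavenger receptor Cd163 (4.54 to 8.35 CPM, 0.87, adjusted p = 0.00415) rose. The list median was -0.04, and Csf1r was at -0.13 (adjusted p = 0.2). Tyrobp was at -0.04 (adjusted p = 0.762). C1qa (0.15, adjusted p = 0.331), C1qb (0.07, adjusted p = 0.87) and C1qc (0.28, adjusted p = 0.306) had positive values and were not called. Ptprc (-0.21, adjusted p = 0.124), Aif1 (-0.31, adjusted p = 0.257) and Adgre1 (-0.54, adjusted p = 0.168) were not called. In each of them every library labelled si-DYRK1A lay below every si-NC library, an order found in 15.3% of all features. Cd163 had an adjusted p of 0.0624 without replicate 2 of the libraries labelled si-DYRK1A. Mrc1 was called lower (-0.30, adjusted p = 0.0282) without that same library. Cd68 was at 0. It and the other genes not tested (3 in all, with Cd14 and Fcer1g) are covered by unannotated transcripts on their strand.

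Neutrophil markers (5 genes, none tested) summed to 1.44 to 1.84 CPM in si-NC and 0.779 to 1.14 CPM in the other group. T and B cell markers (7 genes, none tested) summed to 0.671 to 0.753 and 0.173 to 0.377 CPM. The 6 tested endothelial markers had a median of -0.37, with 3 lower (Tek -0.75, Tie1 -0.43 and Cdh5 -0.31) and none higher, and their sum went from 169.7 to 188.5 CPM in si-NC down to 137.8 to 143.7 CPM. Cdh5 was lost in 3 of the fits that left out a library, with adjusted p-values up to 0.0668. Kdr (-0.01, adjusted p = 0.954), Emcn (0.03, adjusted p = 0.922) and Vwf (-0.53, adjusted p = 0.0719) were not called. Without replicate 3 of si-NC, Vwf was called lower (-0.72, adjusted p = 0.0092).

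The 5 tested fibroblast markers had a median of 0.25, with Lum (0.59) and Postn (1.10) higher, and Pdgfra was at 0. Their sum, mostly Col1a1, was 13005 to 16748 CPM in si-NC and 11415 to 11785 CPM in the libraries labelled si-DYRK1A. Col1a1 itself was at -0.37 without overlap between the groups, with an adjusted p of 0.0869 by edgeR and 0.0122 by DESeq2. It was also called lower without replicate 2 (adjusted p = 7.22e-05) or replicate 3 (adjusted p = 0.00177) of si-NC. Of the smooth muscle and pericyte markers 3 were tested and none passed (median -0.01), except Cspg4 (0.23, adjusted p = 0.0147) without replicate 2 of si-NC. Their sum was 688.7 to 721.8 and 710 to 729 CPM, and Acta2 and Myh11 were at 0. Unannotated transcripts on the same strand cover Acta2, Myh11 and Pdgfra, so their 0 is not evidence of absence. Pdgfrb and Rgs5, which had too few counts to test, are covered as well. In the cardiomyocyte list 3 genes were tested (median 0.15). Actn2 (1359 to 1679 CPM) and Pln (397.3 to 439.8 CPM) rose. Tnnt2 was slightly lower and not called (11.2 to 10.2 CPM, -0.14, adjusted p = 0.595). Pln was lost with DESeq2 (adjusted p = 0.0736) and in 5 of the 6 fits without a library (up to 0.217). The sum of the list was 1728 to 1847 CPM in si-NC and 2094 to 2154 CPM in the other group. The part of these cell types in the chemokine values was not tested.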

How the data were processed

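RNA was sequenced from 6 cultures of rat neonatal cardiomyocytes, 3 per group, grouped and numbered by the sample titles. The authors deposited raw counts per gene, which entered the tests, and FPKM values per gene, scaled by gene length and library, which were used for levels. The paper's methods give HISAT2, the rat build Rnor_6.0 and a NEBNext kit, whereas the submitters' processing notes name Bowtie 0.12.2 and mm8 and the labels a TruSeq kit. The positions printed are those of the table. The counting tool, its use of strand and its handling of overlapping features and multiply matching reads are not given in the sources that were used here. The methods give rats of 1 to 2 days.

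Counts were fitted with the quasi-likelihood test of edgeR 4.0.16 (R 4.3.3) over all features, with TMM factors (0.988 to 1.013), a robust fit and filterByExpr (minimum count 10 in 3 libraries, rescaled by depth, minimum total 15). All p-values were two-sided and Benjamini-Hochberg adjusted, with a threshold of 0.05 and no fold limit. The biological coefficient of variation was 8.82%. Libraries of a group differed beyond sampling noise (chi-square per degree of freedom 2.49 to 5.87) and were counted singly. Every chemokine gene with 10 counts in 3 libraries was described, and up to 4 called genes per pathway list were named in order of p. Other genes named were chosen after their values were seen. The family, the pathway lists and the marker lists were chosen with earlier results of these data known. The values of 1 receptor gene of the family are not reported here, although it is included in the counts and medians. Promoter letters came from RefSeq (GRCr8), matched by symbol.

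The alternatives were DESeq2 1.42.0, other normalizations and filters, limma 3.58.1 (voom, and log2(FPKM + 1) or log2(FPKM + 0.1)), the replicate block, each library left out in turn, and stricter thresholds. Sums with covering unannotated transcripts used GenomicRanges 1.54.1. The scripts were tested on simulated data.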

Additional observations from a re-analysis of the deposited data

How the results depend on the processing

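The count of features called, 2360 with edgeR, was 1199 with limma on log2(FPKM + 1), 1180 with a pseudocount of 0.1, 591 without the filter on low FPKM, 1307 at an adjusted p below 0.01 and 200 when changes under 1 on the log2 scale were left out. DESeq2 called 1575. Leaving out each library in turn gave 1614 to 2210 features. The 12 chemokine genes called higher became 5 when changes under 1 on the log2 scale were left out, 10 to 13 with a library left out and 8 to 12 under the other alternatives. Those called lower were 0 under all alternatives except without replicate 3 of si-NC, where 1 (Cx3cl1) was called, a leave-one-out range of 0 to 1. Cxcl3, Ccl6, Cxcl12, Ackr3, Cxcl6, Cxcr4 and Cxcl10 stayed at an adjusted p below 0.05 in all 18 alternative fits, which do not include the stricter thresholds. On the FPKM scale, Ccl12 (adjusted p 0.0635 with a pseudocount of 1) and Ccr1 (0.0515) were lost, and Ccl7 (0.0719) and Ccl11 (0.0831) without the FPKM filter. The log2 fold change of Cxcl11 lay between -0.026 and 0.30 with a library left out, and was negative without replicate 2 of the libraries labelled si-DYRK1A alone. The cause of these changes was not tested. Libraries with the same number shared only that number (correlations of their deviations 0.0578, -0.0261 and -0.00409), and the fit with the replicate block called 2269 features, 12 chemokine genes higher and 0 lower. Depth limits the 28 chemokine genes under the count limit, for which no comparison was made.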
